A study of Mus musculus with 56 samples.

Results

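The transcripts of 36 core autophagy genes were followed over the day in visceral adipose tissue (VAT) of mice fed by day or by night. The 36 genes form a list of symbols that covers each step of autophagosome formation, and all 36 were found among the 25939 Ensembl genes of the deposited table. All 36 also passed a filter on low values (a mean of at least 0.5 CPM over all libraries), which left 15730 genes for the tests. CPM are recovered reads per 1 M of the effective library size, the scaled total of a library, which ran from 31.8 to 47.3 M.

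The animals were female C57BL/6J mice without any engineered allele or drug. From 7 weeks of age they were group-housed under 12 h of light and 12 h of dark with chow at all times for 7 days, and were then fed under 1 of 2 regimens for 7 days, so that tissue was taken at 9 weeks. Nighttime-restricted feeding (NRF) gave food in the dark, when mice normally eat, and served as the reference. Daytime-restricted feeding (DRF) gave food in the light and so inverted feeding against the light cycle. VAT was taken at ZT0, 4, 8, 12, 16, 20 and 24 (zeitgeber time, hours after lights-on), from 4 mice per time point and regimen, which makes 14 groups and 56 libraries of polyA RNA. Which mice shared a cage is not given in the sources used here. In comparisons of group means, p-values measure the spread between the libraries of a group. In the rhythm and mean level tests that spread also holds departures of group means from a fitted 24-h curve.

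Autophagy wraps cytoplasm or organelles in a double membrane and delivers them to the lysosome. The ULK1 kinase complex starts the process when nutrients are short and the kinase mTORC1 is quiet, a lipid kinase complex marks the membrane site, lipid carriers let the membrane grow, and a ubiquitin-like conjugation system couples ATG8 proteins to it. In fat the pathway is known for its part in adipocyte differentiation and in the removal of mitochondria when beige adipocytes turn white.

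The libraries held 30.7 to 40.6 M recovered reads each. Adipocyte markers (Adipoq, Plin1, Cidec, Lep, Fabp4 and Retn) summed to between 9297 and 31823 CPM. A pair of DRF libraries stood apart on the second principal component, replicate 1 of ZT8 and replicate 4 of ZT0. Their adipocyte sums of 9297 and 13825 CPM lay below the 16616 to 31823 CPM of the other 54 libraries, and their epithelial sums of 606 and 1311 CPM lay above the 27.7 to 122 CPM of the others. Counts of members were also made without this pair. Replicate 4 of NRF ZT24 carried liver markers at 1539 CPM. Because each library is whole tissue, fewer cells of a type and less RNA per cell cannot be told apart.

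Expressed per transcript length, as TPM computed from the recovered reads, the members spanned 465.1 ± 37.4 (SD, n = 56) for Gabarap to 2.10 ± 0.66 for Atg16l2. The highest levels belonged to genes whose proteins are built into the autophagosome or carried inside it. Next to Gabarap stood Map1lc3a at 372.8 ± 40.9, the cargo receptor Sqstm1 at 329.7 ± 32.9, Gabarapl1 at 274.7 ± 51.6 and Map1lc3b at 111 ± 15.3. The ubiquitin-like protein Atg12 followed at 80.3 ± 9.0, the one member whose exon length was inferred from the deposited values rather than read from the reference. The kinases and scaffolds that start the process were lower, for example Ulk2 at 43.1 ± 5.5, Ulk1 at 30.8 ± 4.5, Pik3c3 at 21.2 ± 3.6 and the scaffold Rb1cc1 at 9.04 ± 1.54. Among all 15730 genes tested, Gabarap lay at the 98.3 percentile and Atg16l2 at the 16.4 percentile.

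The first question was whether these genes follow feeding or the light cycle. The fasting phase comprised ZT4, 8 and 12 under NRF and ZT16, 20 and 0/24 under DRF, and the feeding phase the remaining times. The difference was averaged over the regimens, which balances it against light and dark. The genes went in both directions. Of 36 members, 23 passed the test (limma, Benjamini-Hochberg adjusted p under 0.05), beside 47.4% of all genes tested. Of these, 13 were higher in fasting (22% of all genes) and 10 were lower (25.4%). The differences that passed were small, between 0.0744 and 0.413 in size on the log2(CPM + 1) scale. The median over the 36 members was 0.023, against -0.002 over all genes. In each member the ranges of the phases overlapped between libraries under both regimens. The share of all genes with such an overlap is not given here, so it marks no trait of the members. Without the DRF libraries that stood apart, 25 members passed, including the same 23, beside 51.9% of all genes.

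**Figure D1:**
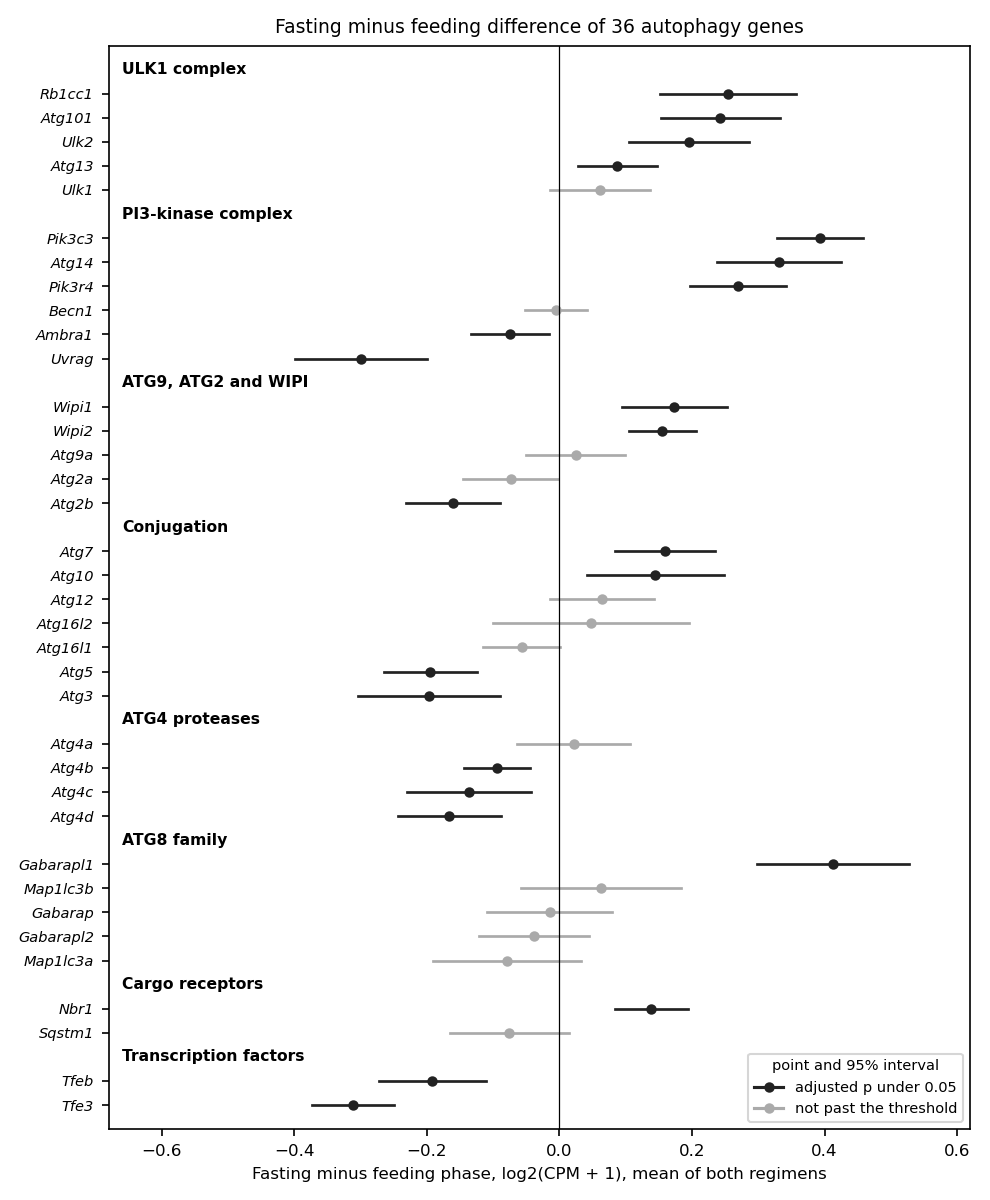
Fasting minus feeding difference of each member on the log2(CPM + 1) scale (x axis), averaged over both regimens, with the 95% interval from limma. Members are grouped by role, and dark points mark the 23 of 36 that passed the threshold. Gabarapl1 lies farthest to the right and Tfe3 farthest to the left.

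In the ULK1 complex, 4 of 5 members were higher in fasting (22% of all genes) and none was lower. Within the regimens 1 of 5 passed under NRF (42% of all genes) and 4 of 5 under DRF (35.9%). The NRF call, Ulk2, was lost without replicate 3 or 4, and Atg13 under DRF without replicate 1 or 3. The test of the difference between the regimens passed for Atg101 alone. Rb1cc1 (FIP200, the scaffold of the complex) ranged under DRF from 33.2 to 57.4 CPM in fasting with a median of 46.3, and from 28.9 to 44.4 CPM in feeding with a median of 37.3. Under NRF its medians lay close together, at 43.8 CPM in fasting and 41.1 CPM in feeding. The averaged difference was 0.25 ± 0.051 (SE, adjusted p = 4.43e-05). The phases overlapped under both regimens.

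Atg101, which stabilises the partner protein ATG13, had a similar form. Under DRF it ranged from 17.0 to 28.3 CPM in fasting (median 23.6) and from 15.4 to 20.3 CPM in feeding (median 17.2). Under NRF it ranged from 13.2 to 18.3 CPM in fasting (median 17.2) and from 12.5 to 20.6 CPM in feeding (median 15.2). The averaged difference was 0.24 ± 0.045 (adjusted p = 1.14e-05). The median of the DRF fasting phase was above every NRF library, while the NRF fasting range lay within the NRF feeding range. The kinase Ulk2 (0.20, adjusted p = 0.000304) and the regulatory subunit Atg13 (0.087, adjusted p = 0.0126) passed as well, and Atg13 lost the threshold without replicate 3. The kinase Ulk1 did not pass (0.061, 95% interval -0.014 to 0.14).

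The class III PI3-kinase complex makes the lipid PI3P that marks the forming membrane. Its members did not move as a block. The catalytic subunit Pik3c3 ranged under NRF from 31.0 to 36.4 CPM in fasting (median 32.9) and from 23.1 to 32.6 CPM in feeding (median 25.7). Under DRF it ranged from 29.0 to 35.7 CPM in fasting (median 33.1) and from 19.6 to 30.4 CPM in feeding (median 24.8). The ranges of the phases met at their edges under both regimens. The difference was 0.39 ± 0.032, with an adjusted p of 4.12e-14.

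Single mice showed the same picture. At ZT8 the 4 NRF mice had 31.3, 35.5, 36.4 and 32.5 CPM of Pik3c3, and the 4 DRF mice 23.3, 28.4, 25.1 and 25.4 CPM. At ZT20 the NRF mice had 24.7, 23.1, 24.4 and 26.5 CPM, and the DRF mice 31.2, 34.5, 34.5 and 30.9 CPM. The groups were separate at both times, with the fasting mice on top each time.

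Pik3r4, the regulatory kinase-like subunit (VPS15), moved with the catalytic subunit. Under NRF it had a median of 29.6 CPM in fasting (24.99 to 31.7) and 25.5 CPM in feeding (22.2 to 33.0). Under DRF the medians were 31.1 CPM (25.7 to 39.9) and 24.4 CPM (20.1 to 28.6). The ranges overlapped, and the difference was 0.27 ± 0.036 (adjusted p = 2.15e-08).

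Atg14 and Uvrag are alternative partners of that kinase core. ATG14 takes it to autophagosome formation and UVRAG to endosomes and later maturation steps. Their RNA went in opposite directions. Atg14 under NRF had a median of 14.9 CPM in fasting (10.9 to 17.9) and 12.0 CPM in feeding (9.68 to 14.7), and under DRF 13.4 CPM (10.8 to 17.9) and 10.002 CPM (8.67 to 13.96). Its difference was 0.33 ± 0.047 (adjusted p = 6.58e-08), higher in fasting.

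Uvrag under NRF had a median of 32.7 CPM in fasting (29.7 to 39.9) and 45.2 CPM in feeding (29.1 to 53.1), and under DRF 38.4 CPM (32.2 to 52.7) and 48.7 CPM (33.3 to 55.8). Its difference was -0.30 ± 0.050 (adjusted p = 1.87e-06), lower in fasting. For both partners the ranges overlapped. An antisense transcript, Gm45187, at a mean of 3.81 CPM, shares 17.6% of the exon bases of Uvrag, and with a library that does not mark strand the reads there cannot be told apart. Becn1, the scaffold beclin 1 that binds either partner, had a difference of -0.0054 with a 95% interval from -0.052 to 0.041. Cntd1, on the opposite strand and at a mean of 0.22 CPM, shares 43.9% of the Becn1 exon bases. Ambra1, a beclin 1 regulator, was lower in fasting by a small amount (-0.074, adjusted p = 0.0342), and it lost the threshold without replicate 1, 2, 3 or 4.

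**Figure D2:**
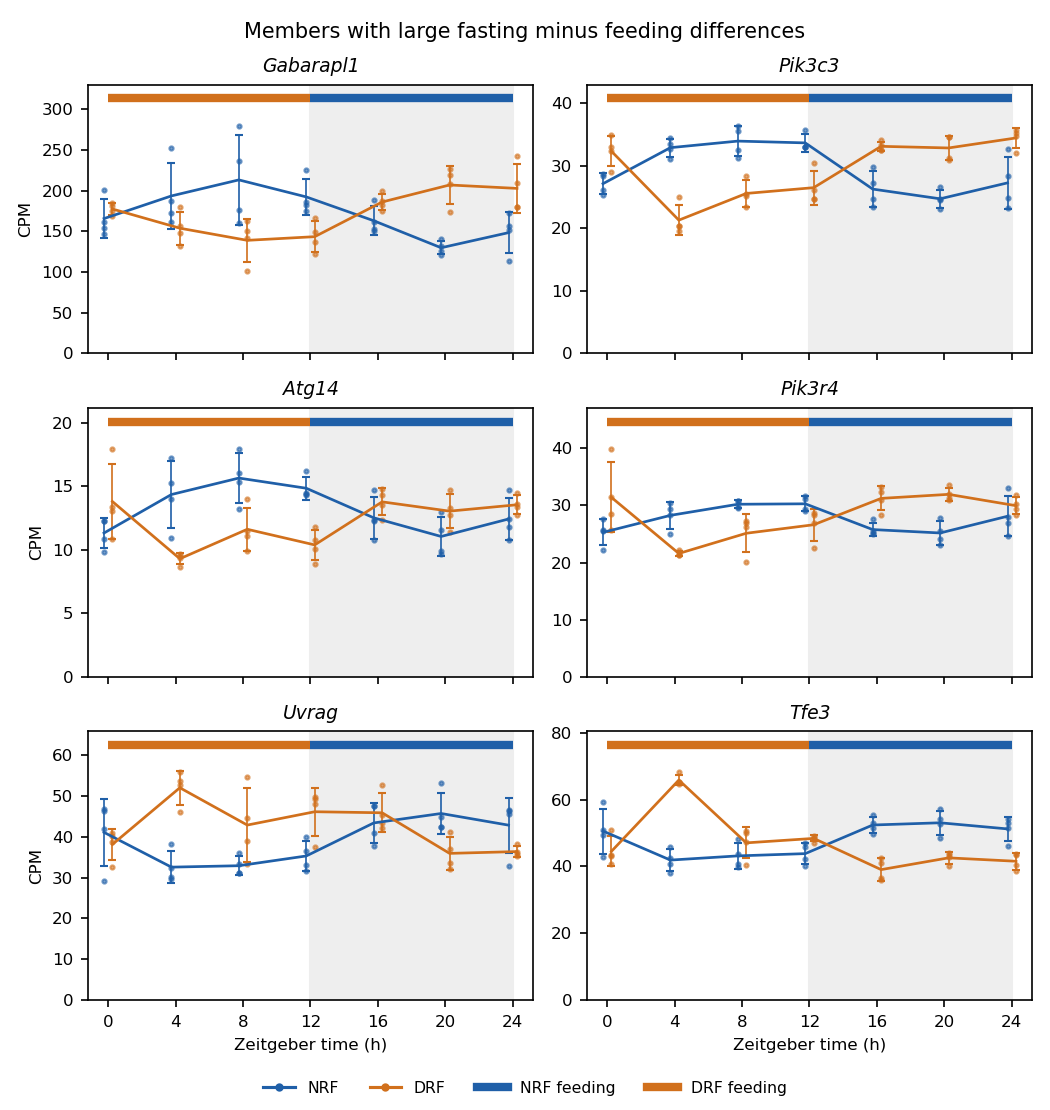
CPM (y axis) by zeitgeber time (x axis) for Gabarapl1, Pik3c3, Atg14, Pik3r4, Uvrag and Tfe3 under NRF (blue) and DRF (orange). Points are single mice, lines join group means with SD bars (n = 4), grey marks the dark, and thick bars mark feeding. In each of the 6 genes the order of the regimen means at ZT4, 8 and 12 is reversed at ZT20, 24 and 0, while at ZT16 Uvrag still has the order of ZT12, and Tfe3 peaks at 65.8 CPM in DRF at ZT4.

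ATG9A, ATG2A, ATG2B, WIPI1 and WIPI2 bring and place membrane lipid, and 3 of these 5 genes passed, beside 47.4% of all genes. The PI3P readers Wipi1 (0.17, adjusted p = 0.000269) and Wipi2 (0.16, adjusted p = 1.35e-06) were higher in fasting. Wipi1 lost the threshold without the boundary times ZT0, 12 and 24, where 38.5% of all genes passed. Its NRF mean was 85.2 CPM at ZT12, against 66.1 CPM at ZT4 and 65.3 CPM at ZT8. The lipid channel gene Atg2b was lower (-0.16, adjusted p = 0.000178). Its relative Atg2a had a difference of -0.074 (95% interval -0.15 to -0.0023, adjusted p = 0.0836), and the scramblase gene Atg9a one of 0.024 (-0.051 to 0.10).

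The conjugation genes were split in the same way. ATG7 is the E1-like enzyme that activates both ATG12 and the ATG8 proteins, ATG10 and ATG3 are the E2-like enzymes of those routes, and ATG5 is joined to ATG12. Atg7 (0.16, adjusted p = 0.000429) and Atg10 (0.14, adjusted p = 0.0175) were higher in fasting. Atg3 (-0.20, adjusted p = 0.00198) and Atg5 (-0.19, adjusted p = 6.36e-06) were lower. Atg12 (0.064), Atg16l1 (-0.057) and Atg16l2 (0.047) did not pass. The Atg10 call was lost without replicate 3 or 4. Within the regimens 5 of 7 passed under NRF (2 higher and 3 lower), beside 42% of all genes, and 0 of 7 under DRF, beside 35.9%. The NRF count rested on single replicate numbers. Atg3 and Atg16l1 were lost without replicate 2 and Atg10 without replicate 3. Without replicate 4, Atg3, Atg10 and Atg16l1 were lost, which left 2 of 7, beside 33.3% of all genes. Without the DRF libraries that stood apart, Atg3 and Atg16l2 passed under DRF, beside 39.5% of all genes. The test of the difference between the regimens passed for Atg7 alone.

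Promoter windows of the members were searched for the letters of motifs as a description. Atg3, Atg5, Atg7 and Atg14 carried those of an E-box, CACGTG, although their RNA did not move in 1 direction. Circadian clock factors and the factors TFEB and TFE3 can bind this sequence. RefSeq (GRCm38.p6) gave 36 windows of 300 bases for 30 of the 36 members, from 250 bases before to 50 bases after a start. CACGTG, which reads the same on both strands, was in 4 of the 36 windows (11.1%) and in 7.15% of all 32851 windows. The longer form TCACGTGA, which contains it, was in 1 member window, that of Atg3, and in 0.974% of all windows. Stretches before the start are shown with the E-box in capitals, for the fasting-low genes Atg3 (chr16:45158711-45158784, plus strand) and Atg5 (chr10:44268301-44268338, plus strand) and the fasting-high gene Atg7 (chr6:114670940-114670993, plus strand, before a start inside the gene and outside annotated exons).
Atg3: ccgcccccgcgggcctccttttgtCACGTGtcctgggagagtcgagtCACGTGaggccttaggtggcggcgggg
Atg5: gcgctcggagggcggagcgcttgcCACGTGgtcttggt
Atg7: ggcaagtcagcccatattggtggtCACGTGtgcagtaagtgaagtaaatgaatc
The Atg3 stretch holds 2 boxes and the others 1 each. A FOXO motif, GTAAACA, and a D-box, TTATGTAA, searched on both strands, were in none of the member windows, against 3.65% and 0.938% of all windows. The nuclear receptor motif AGGTCA was in 6 member windows (16.7%, against 16.3%) and the CRE, TGACGTCA, in 2 (5.56%, against 1.79%). These matches describe letters in a window and no binding.

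ATG4 proteases trim the ATG8 proteins before conjugation and release them afterwards. Of the 4 genes, 3 were lower in fasting, Atg4d (-0.17, adjusted p = 0.000343), Atg4c (-0.14, adjusted p = 0.0132) and Atg4b (-0.094, adjusted p = 0.0014), and Atg4a did not pass (0.021), beside 25.4% of all genes lower. Under NRF 3 of 4 passed (42% of all genes) and under DRF 1 of 4 (35.9%). Under NRF Atg4b and Atg4d were lost without replicate 2, which left 1 of 4 (29.6% of all genes), and Atg4c without replicate 3. The DRF call, Atg4d, was lost without replicate 3 or 4. The difference between the regimens passed for none of the 4. Kri1, at a mean of 10.6 CPM, shares 19.3% of the Atg4d exon bases on the opposite strand. Atg4c lost the threshold without replicate 2 or 3.

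Of the ATG8 family, the ubiquitin-like proteins that coat the membrane and hold cargo, 1 of 5 genes passed, beside 47.4% of all genes. Gabarapl1 had the largest fasting minus feeding difference of all 36 members. Under NRF it ranged from 160 to 280 CPM in fasting (median 184) and from 113 to 200.8 CPM in feeding (median 152). Under DRF it ranged from 169 to 242 CPM in fasting (median 183) and from 101.3 to 180 CPM in feeding (median 148). The fasting medians lay above the feeding medians under both regimens, with overlapping ranges.

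The Gabarapl1 difference was 0.41 ± 0.057 (adjusted p = 4.47e-08), which is 1.33-fold. At ZT20 the 4 DRF mice had 174, 219, 208 and 227 CPM and the 4 NRF mice 121, 126, 140 and 132 CPM, without overlap. At ZT8 the DRF mice had 101.3, 151, 163 and 141 CPM and the NRF mice 176, 280, 160 and 236 CPM, where the lowest NRF mouse fell just under the highest DRF mouse. The lowest DRF value at ZT8 belongs to replicate 1, the library with few adipocyte reads. On the opposite strand 1700101I11Rik, at a mean of 0.20 CPM, shares 28.3% of its exon bases. Gabarapl1 passed the fasting and rhythm tests also without the libraries that stood apart.

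The other ATG8 genes gave small differences with intervals that include 0. These were 0.062 for Map1lc3b (-0.059 to 0.18), -0.015 for Gabarap (-0.11 to 0.080), -0.038 for Gabarapl2 (-0.12 to 0.045) and -0.079 for Map1lc3a (-0.19 to 0.032). Map1lc3a, Map1lc3b, Gabarap and the conjugation gene Atg16l2 passed in none of the fasting, light, mean level and rhythm tests. Members of this family resemble each other in sequence, and how reads that match several of them were counted is not given in the sources used here.

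The cargo receptors NBR1 and SQSTM1 (p62) tie ubiquitinated cargo to ATG8 proteins. Nbr1 was higher in fasting (0.14, adjusted p = 3.42e-05) and Sqstm1 did not pass (-0.075, 95% interval -0.17 to 0.015). Mrnip, on the opposite strand and at a mean of 3.35 CPM, shares 17.3% of the Sqstm1 exon bases. TFEB and TFE3 are basic helix-loop-helix factors that drive lysosome and autophagy genes when they are in the nucleus, and both genes were lower in fasting. Tfe3 under NRF had a median of 42.5 CPM in fasting (38.2 to 48.3) and 52.2 CPM in feeding (42.9 to 59.2). Under DRF the medians were 42.8 CPM (35.99 to 51.0) and 49.6 CPM (40.4 to 68.2). The ranges overlapped, and the difference was -0.31 ± 0.031 (adjusted p = 9.72e-12). Tfeb fell by less (-0.19, adjusted p = 7.94e-05).

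Regimen by regimen, 19 members passed under NRF (52.8%, against 42% of all genes) and 14 under DRF (38.9%, against 35.9%). Under NRF 9 were higher in fasting (19.8% of all genes) and 10 lower (22.3%), and under DRF 10 were higher (16%) and 4 lower (19.9%). In both regimens 10 members passed in the same direction, as 20.5% of all genes did. Of these, 6 were higher in fasting, Gabarapl1, Pik3c3, Atg14, Pik3r4, Ulk2 and Wipi2, and 4 were lower, Uvrag, Tfe3, Tfeb and Atg4d. Some of these calls rested on single replicate numbers or on the time points compared. With ZT8 and ZT20 alone, 35.6% of all genes passed under NRF and 20.2% under DRF. There Ulk2 was lost under NRF, and Atg14, Uvrag, Tfe3, Tfeb and Atg4d were lost under DRF. Without the ZT24 libraries Ulk2 was lost under NRF, and Atg4d and Tfeb were lost under DRF. Ulk2 under NRF was lost without replicate 3 or 4 or the library with liver markers, Atg4d under NRF without replicate 2 and under DRF without replicate 3 or 4, Tfeb under DRF without replicate 2, 3 or 4, and Uvrag under DRF without replicate 4. Without the DRF libraries that stood apart, 20 members passed under NRF and 17 under DRF, including those called with them, beside 47.1% and 39.5% of all genes. Within 1 regimen, fasting and clock time cannot be told apart. Some marker genes passed the fasting test too, beside 47.4% of all genes. Of the adipocyte markers, 2 of 6 were higher in fasting and 1 was lower, and the median sum under DRF was 24584 CPM in fasting and 19856 CPM in feeding, against 20959 and 21177 CPM under NRF. Of 6 macrophage markers 1 passed (lower), of 4 stromal markers 1 (higher) and of 4 endothelial markers 1 (lower). Of 4 liver markers 1 passed (lower), and of 3 brown fat markers 2 (higher, Ucp1 and Cidea). None passed of 4 mesothelial, 6 epithelial, 4 skeletal muscle, 3 red cell and 3 lymphocyte markers tested. The brown fat sums were low, with medians of 37.1 CPM in NRF fasting, 20.2 CPM in NRF feeding, 35.4 CPM in DRF fasting and 34.5 CPM in DRF feeding. Their part in the differences of the members was not tested.

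A cosine of 24 h fitted per regimen gave the daily rhythm of each member. Under NRF 24 of 36 members had a rhythm (66.7%, against 52.6% of all genes), and under DRF 14 had one (38.9%, against 42.7%). The rhythm differed between the regimens for 23 members (63.9%, against 54%). A rhythm under both regimens was found for 11 members (29.6% of all genes), under NRF alone for 13 (36.1%, against 22.9% of all genes), under DRF alone for 3 (8.33%, against 13.1%), which were Rb1cc1, Atg101 and Nbr1, and under neither for 9 (25%, against 34.4%). Without the DRF libraries that stood apart the counts were 28 under NRF, 18 under DRF and 26 for the difference, beside 59.6%, 49.6% and 60.4% of all genes, and each held all members called with them.

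For 9 of the 11 members with a rhythm under both regimens the fitted peaks lay 9.75 to 11.7 h apart, beside the 12 h by which feeding was moved. Such shifts were common in the tissue, as 71.7% of the 4657 genes with a rhythm under both regimens had peaks at least 8 h apart. The median shift was 10.4 h over the 11 members and 9.86 h over those genes. Pik3c3 peaked at ZT7.93 under NRF and at ZT19.3 under DRF, with amplitudes of 0.25 and 0.30 on the log2(CPM + 1) scale. Its shift was 11.4 ± 1.49 h (95% interval), and its rhythm difference had the smallest p of all members (adjusted p = 5.53e-11). Gabarapl1 moved from ZT8.16 to ZT20.4, a shift of 11.7 ± 1.86 h, with an amplitude of 0.31 in both (adjusted p of the difference 1.12e-08). Pik3r4 moved from ZT8.31 to ZT18.9 (adjusted p = 4.22e-07) and Atg14 from ZT8.61 to ZT19.6. In the other direction, Tfe3 moved from ZT19.5 to ZT5.90 (adjusted p = 2.45e-07) and Uvrag from ZT19.4 to ZT9.13. Pik3c3, Gabarapl1, Pik3r4 and Atg14 thus peaked in the light under NRF and in the dark under DRF, and Tfe3 and Uvrag the reverse.

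Atg9a was the exception among the 11. It peaked at ZT15.0 under NRF and ZT16.3 under DRF, 1.3 ± 2.89 h apart, with amplitudes of 0.14 in both, and the test of a rhythm difference gave an adjusted p of 0.731. Gm29253, on the same strand, shares 31.8% of the Atg9a exon bases. Atg2b lay between, with a shift of 5.17 ± 3.10 h from ZT18.4 to ZT13.2, both in the dark. Its rhythm under DRF (adjusted p = 0.0407) lost the threshold without replicate 1, 2, 3 or 4. Of the other members rhythmic under both regimens, Uvrag lost its DRF rhythm without replicate 3 or 4, Atg9a both rhythms without replicate 2, and an NRF rhythm was lost by Pik3r4 without replicate 2, by Ulk2 without replicate 3 or 4 and by Atg13 without replicate 1.

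**Figure D3:**
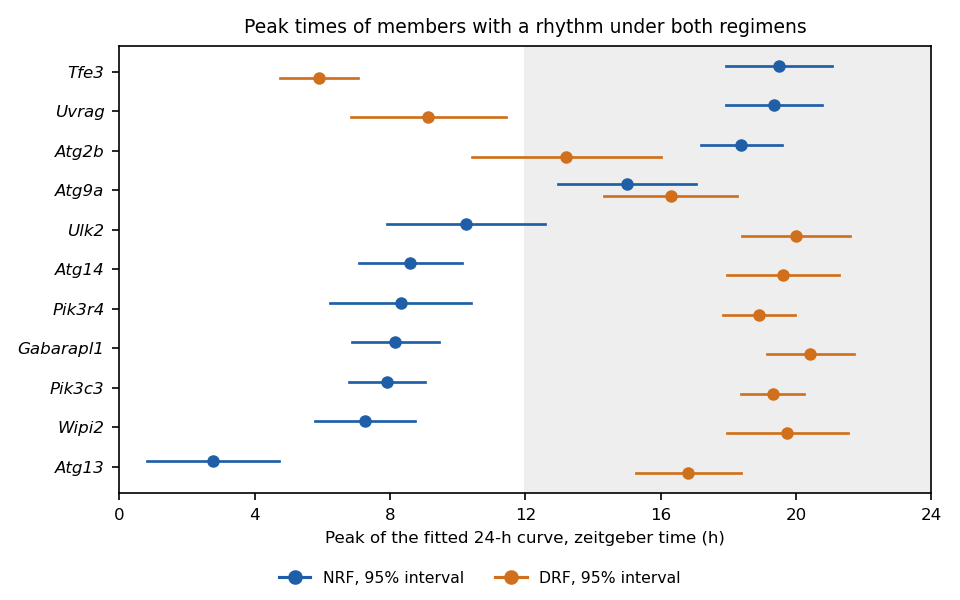
Peak of the fitted 24-h curve (x axis, zeitgeber time in hours) under NRF (blue) and DRF (orange) for the 11 members with a rhythm under both regimens. Lines are 95% intervals and grey marks the dark. In 9 members the peaks lie 9.75 to 11.7 h apart (71.7% of all genes with both rhythms have peaks at least 8 h apart), while those of Atg9a overlap.

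For some other members the fitted amplitudes of the regimens lay far apart. The test of a rhythm difference covers amplitude and peak time together, and amplitude alone was not tested. Tfeb had an amplitude of 0.30 under NRF (adjusted p = 1.11e-07) and 0.076 under DRF (adjusted p = 0.252), with a rhythm difference of adjusted p = 1.20e-05. In CPM, its NRF means ran from 14.01 ± 1.6 at ZT4 to 21.5 ± 1.2 at ZT16, and its DRF means stayed between 15.5 ± 3.1 and 18.5 ± 1.1. Atg5 had amplitudes of 0.23 and 0.060 (adjusted p of the difference 1.51e-05), and Atg7 0.23 and 0.072 (8.18e-05). Nbr1 was the reverse, with 0.032 under NRF and 0.18 under DRF (0.000144).

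The second question was whether the fasting minus feeding difference was the same in both regimens. The difference between the regimens equals 2 times the light minus dark contrast of this layout. A changed response to fasting and a difference by light or clock time therefore cannot be told apart. Of 36 members 4 passed (11.1%, against 15.8% of all genes), Atg7 being higher in the light (8.24% of all genes were) and Atg101, Atg2b and Nbr1 lower (7.52%). These calls depended on single replicate numbers, and the share over all genes moved as well. None of the 4 passed without replicate 2, where 5.21% of all genes passed. Atg2b and Nbr1 did not pass without replicate 1 (12.1% of all genes passed), nor Atg7 and Nbr1 without replicate 3 (11.4%). Atg101 and Atg7 did not pass with ZT8 and ZT20 alone (15.2%). All 4 passed without the DRF libraries that stood apart, with Rb1cc1 and Atg16l2 in addition, beside 19.2% of all genes.

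Atg7 under NRF had a median of 58.6 CPM in fasting (50.8 to 67.5) and 47.5 CPM in feeding (41.0 to 56.1), and under DRF 55.4 CPM (45.4 to 65.2) and 54.8 CPM (36.8 to 62.7). The ranges overlapped in part under NRF and widely under DRF. Its fasting minus feeding difference was 0.30 under NRF and 0.015 under DRF, or 0.29 as NRF minus DRF (95% interval 0.14 to 0.44, adjusted p = 0.00637).

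For Atg101 the order was opposite, with 0.076 under NRF and 0.41 under DRF, a difference of -0.33 (-0.51 to -0.15, adjusted p = 0.00779). The CPM of both phases have been given with the ULK1 complex. Nbr1 had medians of 130 CPM in fasting (116 to 140) and 125 CPM in feeding (111 to 147) under NRF, and 139 CPM (129 to 155) and 123 CPM (94.1 to 136) under DRF. Its fasting minus feeding differences were 0.051 and 0.23, or -0.18 as NRF minus DRF (-0.29 to -0.066, adjusted p = 0.0222). The phases of Nbr1 overlapped under both regimens.

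Atg2b had medians of 31.5 CPM in fasting (24.5 to 36.9) and 39.1 CPM in feeding (28.9 to 42.5) under NRF, and 36.6 CPM (29.8 to 41.2) and 37.1 CPM (34.0 to 43.6) under DRF. Its fasting minus feeding differences were -0.28 and -0.045, or -0.23 as NRF minus DRF (-0.37 to -0.088, adjusted p = 0.0208). The ranges of the phases overlapped under both regimens.

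**Figure D4:**
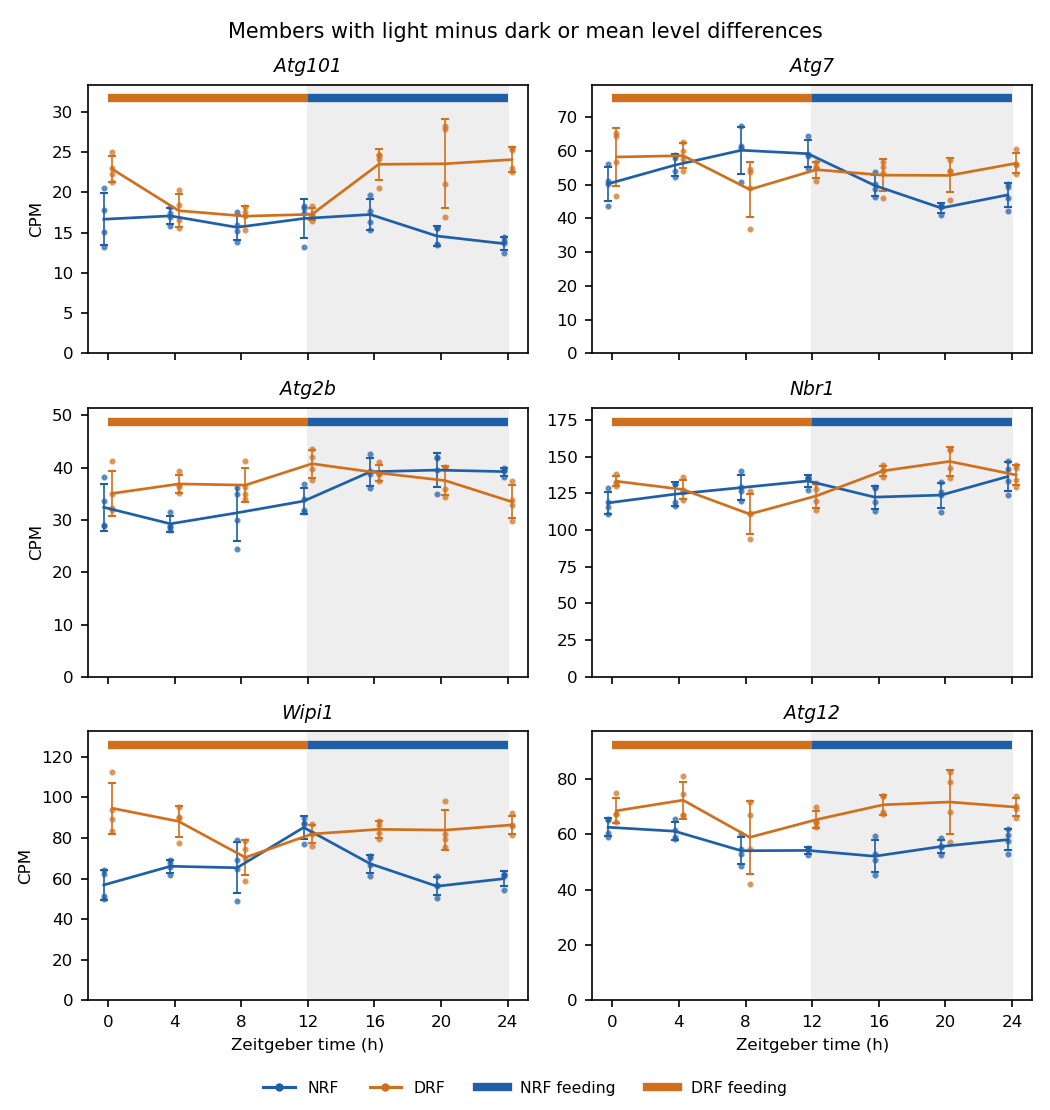
CPM (y axis) by zeitgeber time (x axis) for Atg101, Atg7, Atg2b, Nbr1, Wipi1 and Atg12 under NRF (blue) and DRF (orange), drawn as single mice and group means with SD bars (n = 4). Grey marks the dark and thick bars mark feeding. Atg101, Wipi1 and Atg12 have higher DRF than NRF means through most of the dark.

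The mean level over the day, adjusted for rhythm, differed between the regimens for 15 members (41.7%, against 36.1% of all genes). Of these, 13 were higher under DRF (18.7% of all genes were) and 2 were lower (17.4%), and the median over members was 0.041 against -0.002 over all genes. Scaling by the total of recovered reads moved the median of all genes to -0.042 and gave 12 members past the threshold, 11 of them among the 15, beside 37% of all genes. All 5 genes of the ATG9, ATG2 and WIPI group were higher under DRF, although Atg2a, Atg2b and Wipi2 lost the threshold with that scaling. Leaving out replicate 4 left 8 of the 15 calls (29.2% of all genes passed) and leaving out replicate 2 left 10 (26.2%). Atg2a, Atg2b, Wipi2, Gabarapl2 and Sqstm1 were lost in both cases, and Atg14 and Uvrag also without replicate 4, so that Wipi1 and Atg9a were the members of the ATG9, ATG2 and WIPI group that still passed. Without the DRF libraries that stood apart 16 members passed beside 46.2% of all genes, among them Ulk2 and Atg16l2 in addition and Sqstm1 no longer. Without replicate 1 Atg14 and Uvrag lost the threshold, and without replicate 3 Atg14, Uvrag, Atg4a and Sqstm1 did.

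Wipi1 had the largest difference in mean level, 0.33 ± 0.044 (adjusted p = 9.10e-08), or 1.26-fold. Its DRF medians of 86.1 CPM in fasting (75.4 to 112) and 80.3 CPM in feeding (58.7 to 95.4) stood above the NRF medians of 69.0 CPM (48.8 to 90.0) and 61.4 CPM (49.9 to 71.3). The DRF group mean was higher at 6 of 7 time points, the exception being ZT12 with 82.0 ± 4.5 against 85.2 ± 5.7 CPM. All DRF fasting libraries were above all NRF feeding libraries.

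Atg101 followed with 0.32 ± 0.047 (adjusted p = 3.40e-07), with the DRF mean higher at 7 of 7 time points. The gap was widest at ZT24, with 24.1 ± 1.5 CPM under DRF and 13.6 ± 0.85 CPM under NRF, without overlap. At ZT4, 8 and 12 the groups overlapped.

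The ubiquitin-like gene Atg12 was also higher at 7 of 7 time points (0.26 ± 0.039, adjusted p = 9.17e-07). Its DRF medians were 68.7 CPM in fasting (57.0 to 82.4) and 66.9 CPM in feeding (42.1 to 80.9), against 55.0 CPM (48.6 to 65.6) and 58.0 CPM (45.2 to 65.4) under NRF. The low end of the DRF feeding range is again replicate 1 of ZT8. Atg10, whose enzyme attaches ATG12 to ATG5, was higher by 0.22 ± 0.053 (adjusted p = 0.00103). Its DRF medians were 16.1 CPM in fasting (11.8 to 18.0) and 15.5 CPM in feeding (9.51 to 18.5), and its NRF medians 13.8 CPM (11.3 to 16.5) and 12.3 CPM (9.10 to 17.0), with wide overlap. ATG7 and ATG5, the partners in the same conjugation, were encoded by RNA that did not pass (0.036 and 0.049).

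The other members that were higher under DRF had smaller differences. These were Atg4a (0.16), Uvrag (0.15), Atg9a (0.14), Atg13 (0.13), Gabarapl2 (0.13), Atg2a (0.12), Becn1 (0.11), Atg2b (0.11) and Wipi2 (0.097). The members that were lower under DRF were Atg14 (-0.14, adjusted p = 0.0265) and Sqstm1 (-0.11, adjusted p = 0.0491). The Sqstm1 call was lost without the DRF libraries that stood apart (-0.084, adjusted p = 0.0914) and without the NRF library with liver markers. It was also lost without ZT24, without the filter on low values, with limma-voom and on the deposited values without recovery. Some marker genes differed between the regimens as well. In DRF, 3 of 4 stromal, 3 of 4 mesothelial and 3 of 6 macrophage markers were lower (17.4% of all genes). Of red cell markers, 3 of 3 were higher (18.7% of all genes). Of 6 adipocyte markers 1 was higher and 1 lower. Of 4 endothelial markers 1 was lower, and of 4 liver and 3 brown fat markers 1 each was higher. None passed of 6 epithelial, 4 skeletal muscle and 3 lymphocyte markers tested. Median stromal sums were 1711 and 1970 CPM in DRF fasting and feeding against 2458 and 2106 CPM in NRF. Their part in the mean levels of the members was not tested.

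At single time points, 77 of 252 pairs of member and time point passed, against 24.2% of all pairs. The most were at ZT4 with 16 members (34.3% of all genes) and ZT20 with 15 (22.9%), followed by 12 at ZT16 (18.1%), 10 at ZT24 (20.3%), 9 at ZT8 (28.2%), 8 at ZT0 (18.2%) and 7 at ZT12 (27.4%). Most calls at ZT0, 16 and 24, when DRF mice fasted, were higher under DRF. They were 7 of 8 at ZT0 (8.65% of all genes higher and 9.52% lower), 10 of 12 at ZT16 (8.9% and 9.16%) and 9 of 10 at ZT24 (10.4% and 9.87%). Pik3c3 passed at all 7 time points, lower under DRF at ZT4, 8 and 12 and higher at ZT0, 16, 20 and 24. The 8 members that passed at no time point were Ambra1, Atg16l2, Atg3, Atg4c, Gabarap, Map1lc3a, Map1lc3b and Sqstm1. Leaving out replicate 2, 3 or 4 left 43, 47 and 45 pairs, and 94 passed without the DRF libraries that stood apart. The share of all pairs in these settings is not given here, so these counts show nothing particular to the members. Mean level calls over all genes moved as well, from 36.1% to 26.2%, 26% and 29.2%, and to 46.2% without the DRF libraries.

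At ZT4, 4 h into the light, 12 members were higher under DRF (18.3% of all genes) and 4 were lower (15.9%, Pik3c3, Atg14, Pik3r4 and Rb1cc1). The DRF course of Tfe3 had its highest mean here. Its 4 DRF mice averaged 65.8 ± 1.6 CPM at ZT4, with 44.5 ± 4.5 CPM at ZT0 and 47.1 ± 4.7 CPM at ZT8, and the NRF mice 41.9 ± 3.3 CPM at ZT4 (0.64 on the log2 scale). Uvrag had 52.0 ± 4.2 CPM under DRF and 32.6 ± 3.9 CPM under NRF at that time (0.66), and the groups did not overlap in either gene. Atg2a, Atg4d, Atg16l1 and Atg9a passed at ZT4 alone, with differences of 0.46, 0.45, 0.41 and 0.28. Under NRF the Tfe3 mean was 52.4 ± 2.4 CPM at ZT16, 4 h into feeding, and at most 53.1 ± 3.6 CPM, at ZT20.

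At ZT20, 13 members were higher under DRF (11% of all genes) and 2, Uvrag and Tfe3, were lower (11.8%). Gabarapl1 (0.66) and Atg101 (0.63) led, followed by Wipi1 (0.57), Ulk2 (0.46) and Rb1cc1 (0.45). Wipi2 had 81.5 ± 5.8 CPM under DRF and 61.2 ± 3.0 CPM under NRF (0.41).

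**Figure D5:**
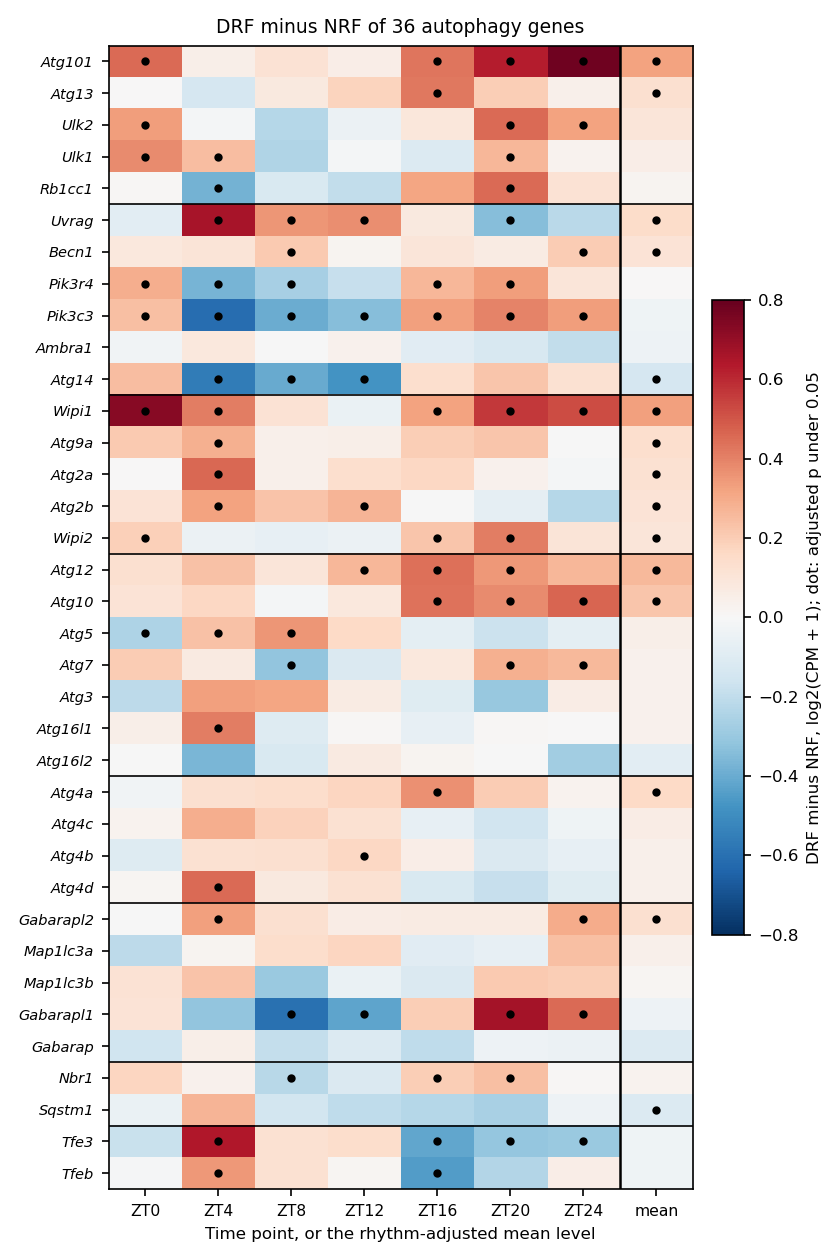
DRF minus NRF on the log2(CPM + 1) scale (colour) for each member (rows, grouped by role) at each time point and for the mean level (columns). A black dot marks an adjusted p under 0.05, which holds for 77 of the time point cells and 15 of the mean cells. Pik3c3, Atg14 and Gabarapl1 are blue in the light and red in the dark.

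Other autophagy genes outside the 36 were counted from lists. Of 20 further autophagy genes, 11 passed in the fasting comparison (55%, against 47.4% of all genes), 6 higher and 5 lower (22% and 25.4% of all genes). The largest were Tmem41b (-0.48) and Nrbf2 (-0.45). TMEM41B is an ER scramblase of membrane growth, and NRBF2 binds the ATG14 form of the PI3-kinase complex. Of 13 selective receptors, 9 passed (69.2%, against 47.4% of all genes, 7 higher and 2 lower), led by Bnip3 (0.60), a mitochondrial receptor, and Calcoco1 (0.51), a receptor for the endoplasmic reticulum. The median of the receptors was 0.15.

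Of 22 lysosomal genes 3 passed in the fasting comparison (13.6%, against 47.4% of all genes), each higher in fasting. They were Npc1 (0.45), a cholesterol exporter, Ctsa (0.13), a carboxypeptidase, and the calcium channel gene Mcoln1 (0.10). In mean level 15 of these 22 passed (68.2%, against 36.1% of all genes), 10 higher and 5 lower under DRF (18.7% and 17.4% of all genes). Of 21 nutrient signalling genes 12 passed in the fasting comparison (57.1%, against 47.4% of all genes), 6 in each direction, led by the AMPK subunit gene Prkaa2 (-0.70) and the mTORC1 inhibitor gene Sesn2 (0.43). Of 11 further factors 8 passed (72.7%, against 47.4%), led by Ppara (0.92), a fasting-responsive nuclear receptor, and the stress factor gene Atf4 (-0.71).

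Fat genes known to answer to feeding checked the phases. Of 8, 6 passed (75%, against 47.4% of all genes), 4 higher and 2 lower in fasting. The largest were the lipogenic gene Acly (-1.35) and the lipase inhibitor gene Angptl4 (1.26). Under NRF 5 of 8 passed (42% of all genes), 2 higher and 3 lower. Under DRF 5 of 8 passed (35.9%), 4 higher and 1 lower. The test of the difference between the regimens passed for 1 of 8 (12.5%, against 15.8% of all genes). Pdk4, a fasting gene, was higher in fasting (0.55, adjusted p = 0.000793), and the lipogenic gene Fasn did not pass (-0.41, adjusted p = 0.153). The clock genes Nr1d1 and Dbp differed in light minus dark by 1.996 and 1.44 on the log2 scale, against at most 0.17 in size for the autophagy genes.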

How the data were processed

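PolyA RNA of VAT was sequenced from 56 libraries. Per the submitters' processing notes and the study's methods, reads were aligned with HISAT2 2.0.5 and counted with featureCounts 1.5.0-p3 on mm10. The deposited values, named TPM by the authors, are a score: the values follow log2(1 + CPM) divided by exon length and rescaled in each library. Whole reads were recovered from their steps. With reference lengths 97.3% of the values tested came out whole (within 0.02, 4.0% by chance), 8 of 25939 genes could not be resolved, and each library held 30.7 to 40.6 M recovered reads.

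Tests used limma 3.58.1 in R 4.3.3 with a trend, on log2(CPM + 1), over the 15730 genes with a mean CPM of at least 0.5, with Benjamini-Hochberg adjustment over all of them and a threshold of 0.05. Each regimen had its own cosine and sine terms with a period of 24 h for the rhythm, and phases were compared by contrasts of 14 group means, with ZT0 and ZT24 averaged as 1 time point. Intervals are 95%. The deposited unit is not a count, so the reported tests use log2 values, and limma-voom on the recovered reads was run as an alternative. On simulated data the fasting test recovered 75 of 100 genes changed by 0.25 and 98 of 100 changed by 0.5 (log2), with 15 of 14930 other genes called. At 0.25 the mean level test recovered 74 of 100, the light minus dark test 66, the NRF rhythm test 64 and the rhythm difference test 17, and at 0.5 they recovered 100, 100, 100 and 95.

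Members with full values were the 8 with the largest fasting difference, the 4 with the largest light minus dark difference, the 4 with the smallest p of a rhythm difference and the 4 with the largest mean difference, each past the threshold, and other lists by their 2 largest fasting differences (the lysosomal Mcoln1 and the brown fat genes were named after their values were seen). The members and lists were chosen with earlier results of these data known. Alternatives were other filters, pseudocounts, scalings, rhythm tests, a replicate block, and libraries or times left out. Leaving out the NRF library with liver markers was chosen after seeing the data.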

Additional observations from a re-analysis of the deposited data

Results flagged for a closer look

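The 14 members with full values were checked in each of their 14 groups of 4 mice, 196 groups in all, for a mouse far from the others by Dixon's test. Such a mouse was found in 12 groups, and chance gives one in about 1 of 20 groups. Under DRF, Rb1cc1 was at 38.984 CPM in replicate 1 of ZT4 (the other mice had 29.5 to 30.5 CPM), Pik3c3 at 24.908 CPM in replicate 2 of ZT4 (19.6 to 20.4 CPM), Pik3r4 at 20.143 CPM in replicate 3 of ZT8 (26.2 to 27.3 CPM), Uvrag at 37.431 CPM in replicate 2 of ZT12 (48.1 to 49.6 CPM) and Atg101 at 20.597 CPM in replicate 3 of ZT16 (24.2 to 24.6 CPM). Under NRF, Atg10 was at 11.289 CPM in replicate 2 of ZT8 (13.6 to 13.8 CPM), Uvrag at 32.788 CPM in replicate 1 of ZT24 (45.6 to 46.6 CPM) and Wipi1 at 54.408 CPM in replicate 2 of ZT24 (61.4 to 62.3 CPM). In the NRF group of ZT12, Atg14 was at 16.209 CPM (14.3 to 14.4 CPM) and Pik3c3 at 35.735 CPM (the others at 32.9 CPM) in replicate 1, and Atg101 at 13.22 CPM (17.5 to 18.3 CPM) and Nbr1 at 127.49 CPM (135.1 to 135.7 CPM) in replicate 2.

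The fasting minus feeding difference was not the same in both regimens for 4 members, by limma's test of the difference itself. The NRF minus DRF difference was -0.3335 for Atg101 (adjusted p = 0.00779), -0.23078 for Atg2b (adjusted p = 0.0208), 0.2883 for Atg7 (adjusted p = 0.00637) and -0.17589 for Nbr1 (adjusted p = 0.0222). None of the 4 passed without replicate 2, where 5.21% of all genes passed, against 15.8% with all libraries.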

How the results depend on the processing

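No difference of a member that passed changed direction under any of the alternatives run, and 611 of 684 recomputed values stayed on their side of the threshold. The remaining 73 values belonged to 20 of 42 differences, and the cause was not tested. Of 155 counts of members, 143 stayed within 1.5 times. Mean level calls fell from 15 to 9 at an adjusted p under 0.01. With 1 replicate number left out they ranged from 8 (without replicate 4, 29.2% of all genes) to 14 (without replicate 1, 31.1%). Light minus dark calls, 4 as reported (15.8% of all genes), were 2 with scaling by total recovered reads (16.7%) and 2 on the deposited values without recovery (13%). They were 2 without ZT24 (9.57%), 8 without ZT0, 12 and 24 (21.1%) and 2 at an adjusted p under 0.01. With ZT8 and ZT20 alone Atg101 and Atg7 were lost, Atg5, Atg4a and Gabarapl2 were gained, and the calls numbered 5 (15.2%). With 1 replicate number left out they ranged from 0 (without replicate 2, 5.21%) to 4 (without replicate 1 or 4, 12.1% and 10.2%). Calls at single time points, 77 as reported, ranged from 43 to 70 in the same way, without a share over all genes beside them. With the replicate number as a block, the pairing of equal numbers gave 25 rhythms under NRF (53.9% of all genes) and 16 under DRF (44.4%). Rhythm differences were 23 (55.2%), mean level calls 16 (37.3%), fasting calls 23 (48.6%) and light minus dark calls 5 (17.1%). Fasting calls were 20 under NRF (43.2%) and 15 under DRF (37.2%), and time point calls 85, without a share over all genes. The median correlation was 0.036 over 364 pairs of equal number and -0.013 over the others. Of the pairs of equal number, 37.1% had a correlation over 0.1. Whether equal numbers pair the mice is not settled by these values. Atg16l2, with 97 to 476 reads per library, was the member most limited by depth.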
